A study of Oryza sativa Japonica Group with 12 samples.

Results

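The chitinase genes of rice described here, Cht4, chia4a and Chia1d, were followed over plant age and genotype in the base of the shoot. Their 3 probe sets, 1 for each gene, were taken from 57194 probe sets, of which 22436 are matched to 1 gene each, 17905 genes in all. They were found by symbol or synonym, and the symbols themselves had been chosen on the differences these same arrays showed with age and with genotype. The differences of these genes are therefore given as a description, without a test. The gene table also lists Cht4 (LOC4336263) as OsChia2b, chia4a (LOC4336265) as OsChia4a and Cht5, and Chia1d (LOC4338720) as OsChia1d and Cht7, names that place them in chitinase classes II, IV and I.

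Chitinases cut chitin, the N-acetylglucosamine polymer of fungal cell walls and insect cuticles, which plants themselves do not make. Plant genomes carry many of them, in glycoside hydrolase families 18 and 19, and several are counted among the pathogenesis-related proteins that plants make when attacked. Others are present in healthy organs, where they are tied to growth and development, and some relatives have lost the activity and act as inhibitors of other enzymes.

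The study measured transcripts with the Affymetrix Rice Genome Array in the lowest 5 mm of the shoot, the region that holds the meristem and the bases of young leaves. All plants were rice of the cultivar Nipponbare fed hydroponically with nitrogen as 1 mM ammonium. Of 4 groups of 3 arrays, 2 came from plants homozygous for gs1;2, a mutation of the cytosolic glutamine synthetase gene GLN1-2, grown for 11 d and for 7 d. The other 2 came from wild-type plants grown for 11 d and for 7 d. The labels name a single mutant, and the series' design text speaks of biological replicates. The labels' growth text also mentions another chamber and a longer culture for samples numbered 13 to 36, and the titles of the wild-type arrays at 11 d end in 13, 14 and 15. Another growth condition of that group cannot be told apart from its age and genotype. The titles also read 3rd on every array at 7 d and 4th on every array at 11 d. Whatever these words mark cannot be told apart from age.

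Values are log2 signals, on which a difference of 1 means a doubling, and array medians lay between 4.944 and 5.005. The targeted gene GLN1-2 had 8.37, 8.65 and 11.44 in the arrays labelled mutant at 11 d, against 12.44, 12.42 and 12.50 in wild type at 11 d. At 7 d it had 7.76, 7.65 and 7.80 in the mutant, against 12.38, 12.31 and 12.46 in wild type. The value of 11.44 goes against the label of its array, mutant 11 d replicate 3, so the values of the 3 chitinases that use it are also given without it, and those of other genes where leaving it out changed a call or moved a value by over 1.5 times. The meristem marker OSH1 averaged 11.67 in the mutant and 11.55 in wild type at 11 d, against 11.50 in the mutant and 11.52 in wild type at 7 d. It is 1 of 4 class I KNOX genes with a probe set. Of these, 1 passed as lower and 1 as higher in the mutant at 11 d, against 22.8% and 23.9% of all genes. HOS9 differed by -0.52 (limma, Benjamini-Hochberg adjusted p = 0.000461) and HOS16 by 0.29 (limma adjusted p = 0.047). The call of HOS16 was lost without the array in doubt (0.27, limma adjusted p = 0.121). The summed signal of 9 seed storage and aleurone genes was 7.81 to 7.95 (log2) in the mutant and 10.26 to 10.99 in wild type at 11 d, against 7.91 to 8.43 in the mutant and 7.88 to 8.20 in wild type at 7 d. That of 7 green leaf genes was 14.07 to 14.19 in the mutant and 13.39 to 13.52 in wild type at 11 d, against 13.39 to 13.66 in the mutant and 13.21 to 13.67 in wild type at 7 d. Sums were taken on unlogged signals, so the brightest genes weigh most. Of the seed genes, AMY1.3 differed most at 11 d, averaging 4.88 in the mutant and 10.04 in wild type. GLUA-2 came next, at 6.86 and 8.98. By limma 4 of the 9 passed as lower in the mutant at 11 d, against 22.8% of all genes, and 0 as higher, against 23.9%. Without the array in doubt 3 passed as lower. The part of these shifts in the results was not tested.

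Cht4 and chia4a were far higher in the older plants of both genotypes, by about the same amount. Cht4, a class II enzyme by its name, had 9.11, 8.12 and 8.40 (log2 signal) in the mutant at 11 d, against 2.78, 5.72 and 3.93 in the mutant at 7 d. Every array at 11 d lay above every array at 7 d, and the gap between the groups was 2.41. In wild type, Cht4 had 9.21, 9.42 and 8.97 at 11 d, against 3.98, 5.01 and 5.19 at 7 d. Here too the ages did not overlap, with a gap of 3.77.

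The difference with age in Cht4 was 4.40 (log2, SE 0.57) in the mutant, a 21.2-fold higher signal at 11 d. In wild type it was 4.47 (SE 0.57), or 22.2-fold. Ranked among the increases of all 57194 probe sets, Cht4 stood at place 7 in the mutant and place 9 in wild type. Without the array in doubt, the difference in the mutant was 4.48 (SE 0.66). In tissue of several cell types, more RNA per cell and more cells of a type that makes it cannot be told apart.

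The gene chia4a, class IV by its name, showed the same course at a smaller spread. It had 9.57, 8.41 and 9.01 in the mutant at 11 d, against 4.24, 5.22 and 5.11 in the mutant at 7 d. In wild type it had 9.88, 10.06 and 9.49 at 11 d, against 5.39, 5.74 and 5.95 at 7 d. The ages were apart by 3.19 in the mutant and by 3.54 in wild type. The difference with age was 4.14 (SE 0.30), 17.7-fold, in the mutant and 4.12 (SE 0.30), 17.4-fold, in wild type. These stood at place 9 and place 21 of all increases. Without the array in doubt, the mutant's difference was still 4.14 (SE 0.35).

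**Figure D1:**
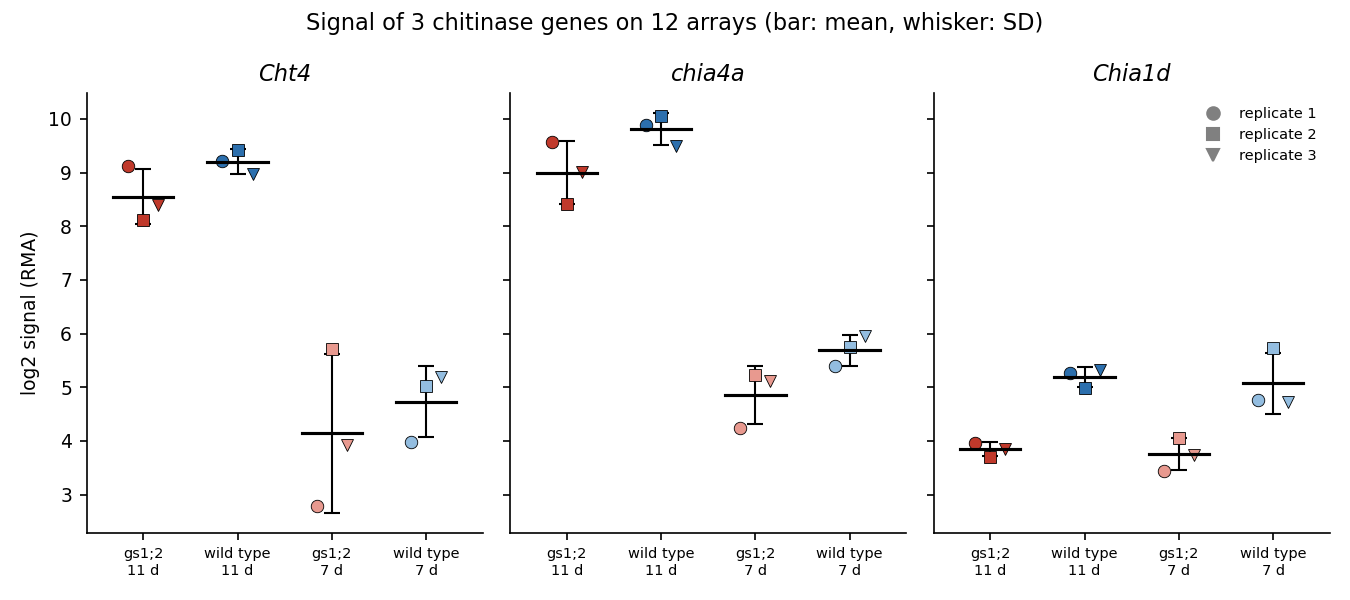
Log2 signal of Cht4, chia4a and Chia1d in each of the 12 arrays, by group, with group means and SDs (n = 3 arrays a group). Cht4 and chia4a are high in every array at 11 d, while Chia1d is low in every array labelled as the mutant at either age.

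Beside that age difference, both genes had lower means in the mutant at each age, by less than 1 on the log2 scale. For chia4a the genotype difference was -0.84 (SE 0.30) at 7 d, where the groups were apart by 0.17. At 11 d it was -0.81 (SE 0.30), and the highest mutant array lay 0.08 above the lowest wild-type array. The difference was -0.82 (SE 0.35) at 11 d without the array in doubt. Single arrays moved both values, to -0.53 at 7 d without mutant replicate 1 and to -0.52 at 11 d without mutant replicate 2. For Cht4 the genotype difference was -0.59 (SE 0.57) at 7 d and -0.65 (SE 0.57) at 11 d, with overlapping groups at both ages. Single arrays mattered more for Cht4 at 7 d: the difference was 0.09 without mutant replicate 1, the array at 2.78, and -1.37 without mutant replicate 2, the array at 5.72.

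Of the members, Cht4 varied most within groups. Its residual SD was 0.86, larger than that of 99.8% of all probe sets, whose median was 0.13. For chia4a and Chia1d it was 0.45 and 0.34. The spread of Cht4 was widest in the mutant at 7 d, where the arrays ranged over 2.93. In wild type at 11 d they ranged over 0.46. Whether the low signals at 7 d lie above the background of the array is unknown, since no detection calls were used here.

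Within each group, Cht4 and chia4a put the 3 arrays in the same order, in 4 of 4 groups. In the mutant at 7 d, for instance, replicate 1 was lowest and replicate 2 highest in both genes. Chia1d shared that order with each of the pair in 2 of 4 groups. How often other genes share an order was not counted. Whether the probes of Cht4 and chia4a also match each other's transcripts was not examined. Over all 12 arrays the Pearson correlation was 0.979 between Cht4 and chia4a, against 0.247 between Cht4 and Chia1d and 0.267 between chia4a and Chia1d. The arrays are the same in each case and fall into an older and a younger cluster, so the first value mostly restates the shared age difference.

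In the gene table, which follows the order along the chromosome in the assembly ASM3414082v1, Cht4 and chia4a stand directly beside each other. The 6 genes around them, chosen after the values were seen, are given for comparison. In the mutant, 2 of the 6 rose with age and 0 fell (limma, Benjamini-Hochberg adjusted p under 0.05), against 6.51% and 8.98% of all genes. In wild type 1 rose and 3 fell, against 25.5% and 28.4% of all genes. These counts were the same without the array in doubt. LOC4336262, directly before Cht4, differed by 0.03 with age in the mutant (adjusted p = 0.923) and by 0.13 in wild type (adjusted p = 0.327). LOC4336267, directly after chia4a, differed by -0.55 in the mutant (adjusted p = 0.257) and fell by 1.15 in wild type (adjusted p = 0.00394). The gene that rose in both genotypes was LOC4336260, farthest of the 3 before Cht4. It rose by 1.78 (adjusted p = 9.57e-06) in the mutant and by 0.77 (adjusted p = 0.000671) in wild type.

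**Figure D2:**
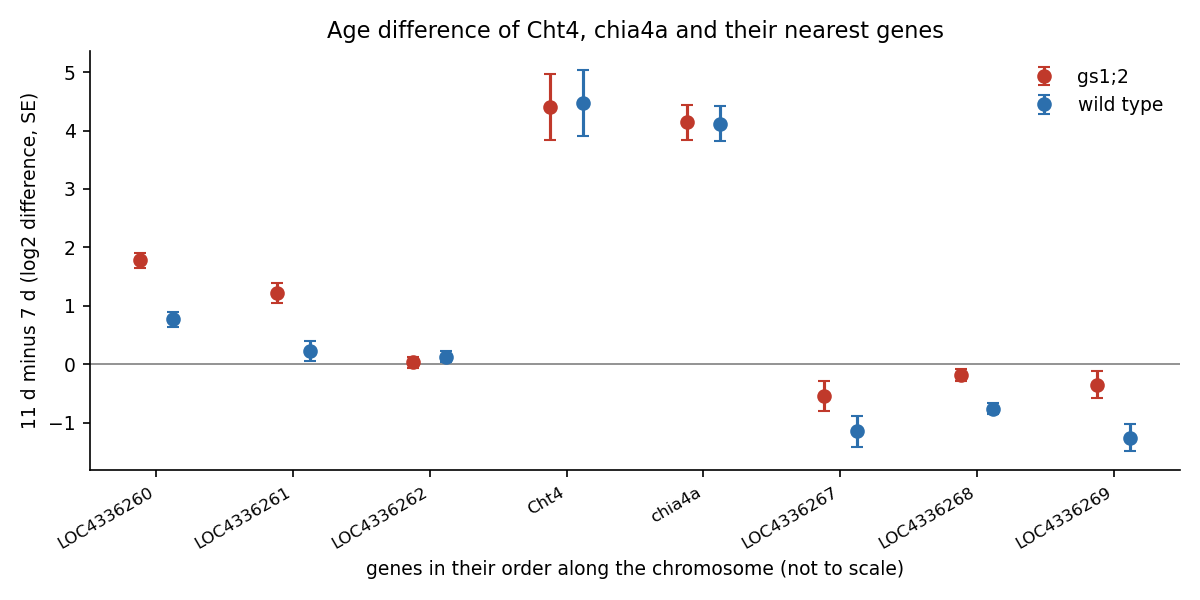
Difference of 11 d minus 7 d (log2, with SE) in the mutant and in wild type for Cht4, chia4a and the genes beside them in the order of the gene table. Cht4 and chia4a, chosen on such differences, stand above 4 in both genotypes, and no neighbour reaches 2.

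Chia1d, class I by its name, differed with genotype at both ages and hardly with age. It had 3.96, 3.70 and 3.85 in the mutant at 11 d, against 5.27, 4.98 and 5.33 in wild type at 11 d. Its 7 d values were 3.45, 4.05 and 3.74 in the mutant, against 4.77, 5.73 and 4.73 in wild type. Each mutant array lay below each wild-type array of its age, by at least 1.02 at 11 d and 0.68 at 7 d.

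The genotype difference in Chia1d was -1.35 (SE 0.23) at 11 d, a 2.56-fold lower signal in the mutant. At 7 d it was -1.33 (SE 0.23), or 2.51-fold lower. Among the decreases of all probe sets these stood at place 832 at 11 d and place 36 at 7 d. The difference at 11 d, leaving out the array in doubt, was -1.36 (SE 0.27). That array had 3.85 for Chia1d, between the other mutant arrays, though its GLN1-2 signal was 11.44. Against age, Chia1d differed by 0.09 (SE 0.23) in the mutant and by 0.12 (SE 0.23) in wild type, with overlapping ages in both.

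The summed signals of seed, green leaf, root and phloem markers overlapped between the genotypes at 7 d and were apart at 11 d. Their part in the difference of Chia1d was not tested at either age. All 12 signals of Chia1d lay between 3.45 and 5.73, and whether its mutant levels lie above background is unknown as well.

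Set side by side, the pattern is an age difference in Cht4 and chia4a and a genotype difference in Chia1d, each alike on both levels of the other factor. The genotype difference at 11 d minus that at 7 d was -0.07 for Cht4, 0.02 for chia4a and -0.03 for Chia1d, values that the choice of these genes largely fixes. With single arrays left out or another setting it ranged over -0.75 to 0.72 for Cht4, -0.28 to 0.32 for chia4a and -0.35 to 0.15 for Chia1d. Averaged over genotypes, the age difference was 4.44 for Cht4, 4.13 for chia4a and 0.10 for Chia1d. Averaged over ages, the genotype difference was -0.62 (SE 0.40), -0.82 (SE 0.21) and -1.34 (SE 0.16), in the same order. Of all genes, 6.51% rose and 8.98% fell with age in the mutant, and 25.5% rose and 28.4% fell in wild type. Between genotypes at 7 d, 0.787% were higher and 0.464% lower in the mutant, and at 11 d 23.9% were higher and 22.8% lower. Nothing about the 3 genes follows from these shares, since the same differences chose them.

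**Figure D3:**
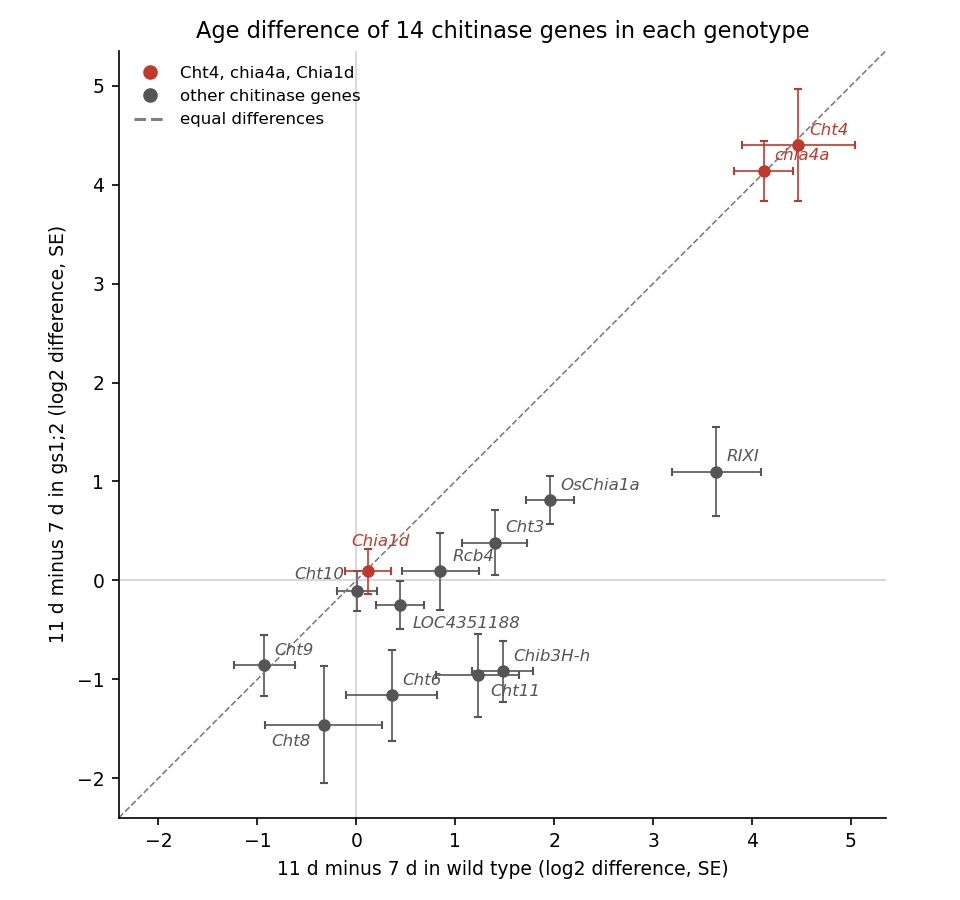
Age difference (11 d minus 7 d, log2, with SE) in the mutant against that in wild type for 14 chitinase genes, the 3 described here in red; the dashed line marks equal differences. Cht4 and chia4a lie on the line above 4, and Chia1d lies near 0 on both axes.

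The gene table names 16 chitinase genes, 14 of which have a probe set here, so 11 others could be compared with Cht4, chia4a and Chia1d. Among these 11, 0 rose and 0 fell with age in the mutant, against 6.51% and 8.98% of all genes. These counts are at an adjusted p under 0.05 by limma (2 and 5 of the 11 at an unadjusted p under 0.05). Without the array in doubt, 1 of the 11 rose and 2 fell. In wild type 5 of the 11 rose and 1 fell, against 25.5% and 28.4% of all genes, and the median difference was 0.85, against -0.03 over all genes. No other chitinase gene rose in both genotypes (0 of 11), and 0 fell in both, against 2.47% and 4.85% of all genes. Without the array in doubt 1 rose in both and 1 fell in both.

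OsChia1a, another class I enzyme by its name, was higher at 11 d in each genotype. It had 9.77, 9.21 and 8.95 in the mutant at 11 d, against 8.43, 8.72 and 8.37 in the mutant at 7 d. In wild type it had 10.02, 9.71 and 9.40 at 11 d, against 7.30, 7.84 and 8.10 at 7 d. The ages did not overlap in either genotype. It rose by 1.96 in wild type (SE 0.24, adjusted p = 4.38e-05). In the mutant it differed by 0.81 (adjusted p = 0.0552), and, leaving out the array in doubt, by 0.99 (adjusted p = 0.0355).

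RIXI and Chib3H-h rose with age in wild type, and the test of the change between genotypes passed for both. RIXI, a xylanase inhibitor built like a family 18 chitinase, had 5.88, 5.44 and 7.54 in the mutant at 11 d, against 9.05, 8.75 and 8.03 in wild type at 11 d. At 7 d it had 4.75, 5.44 and 5.38 in the mutant, against 4.58, 5.05 and 5.29 in wild type. The genotypes overlapped at 7 d and were apart at 11 d, and the mutant array nearest to wild type at 11 d was the array in doubt.

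RIXI rose with age by 3.64 in wild type (SE 0.45, adjusted p = 5.25e-05) and differed by 1.10 in the mutant (adjusted p = 0.183), where the ages were apart by 0.01. Leaving out the array in doubt, the mutant's difference was 0.47 (adjusted p = 0.502). The genotype difference at 11 d was -2.32 (SE 0.45, adjusted p = 0.00187). Its genotype difference changed between the ages by -2.54 (SE 0.63, adjusted p = 0.0125). Leaving out the array in doubt, that change was -3.16 (adjusted p = 0.000402).

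Chib3H-h, named as a class III chitinase, had 4.84, 5.04 and 5.71 in the mutant at 11 d, against 7.73, 8.23 and 8.06 in wild type at 11 d. Its 7 d values were 6.03, 6.50 and 5.83 in the mutant, against 5.82, 7.11 and 6.65 in wild type. Only at 11 d were the genotypes apart. The genotype difference at 11 d was -2.81 (SE 0.31, adjusted p = 2.87e-05), and the change of the genotype difference between the ages was -2.40 (SE 0.43, adjusted p = 0.00182). In wild type it rose with age by 1.48 (SE 0.31, adjusted p = 0.00231), and in the mutant it differed by -0.92 (adjusted p = 0.0927), and, leaving out the array in doubt, by -1.18 (adjusted p = 0.0454).

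Cht9 stands directly beside Chia1d in the gene table, and its genotype difference had the same sign at both ages. It had 5.37, 6.33 and 6.72 in the mutant at 11 d, against 7.28, 6.86 and 6.99 in wild type at 11 d. At 7 d it had 6.57, 7.64 and 6.81 in the mutant, against 7.84, 8.00 and 8.07 in wild type. No mutant array reached a wild-type array of its age. The difference was -0.90 at 11 d (SE 0.31, adjusted p = 0.0522) and -0.97 at 7 d (SE 0.31, adjusted p = 0.157). It passed at 11 d once the array in doubt was left out, at -1.19 (adjusted p = 0.0146).

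Unlike Chia1d, Cht9 also had lower means at 11 d than at 7 d. It fell by 0.93 in wild type (SE 0.31, adjusted p = 0.038), a call lost without each of 5 wild-type arrays in turn. In the mutant it differed by -0.86 (adjusted p = 0.127), and, leaving out the array in doubt, by -1.16 (adjusted p = 0.0472).

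**Figure D4:**
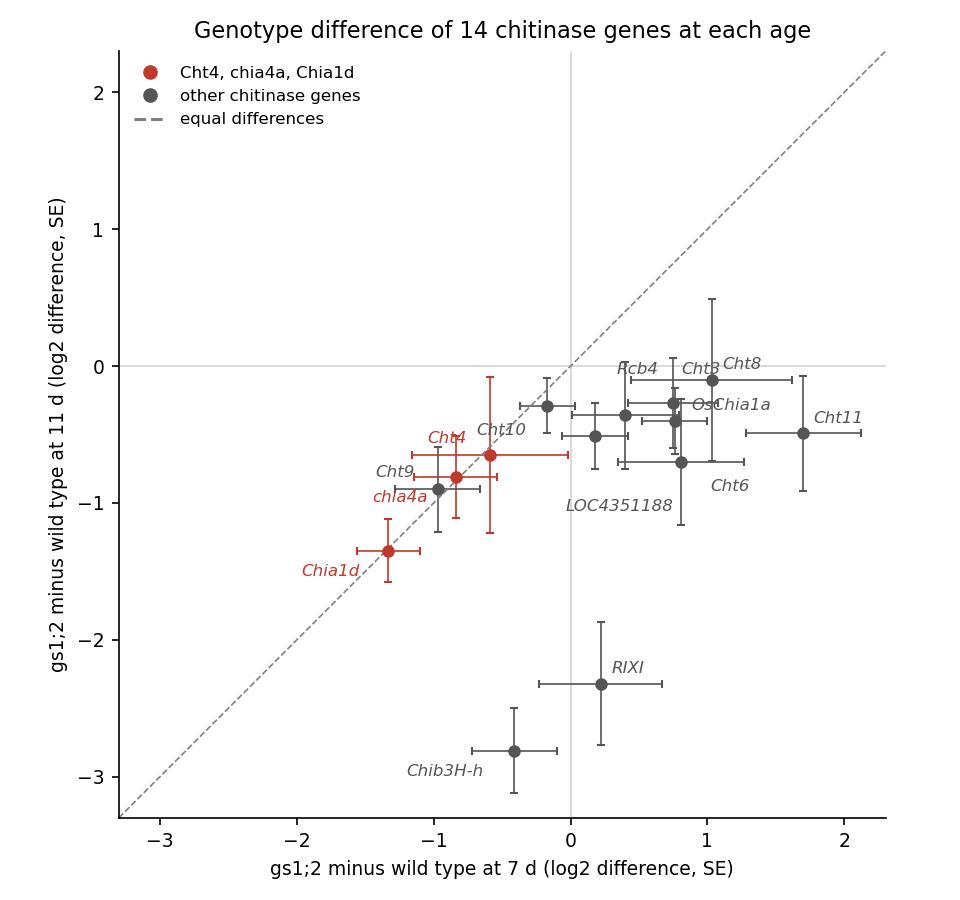
Genotype difference (mutant minus wild type, log2, with SE) at 11 d against that at 7 d for 14 chitinase genes, the 3 described here in red; the dashed line marks equal differences. Chia1d, chia4a, Cht4 and Cht9 lie near the line below 0, and RIXI and Chib3H-h lie below -2 at 11 d alone.

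Between the genotypes at 7 d, 0 of the 11 other chitinase genes passed in either direction, against 0.787% higher and 0.464% lower of all genes. At an unadjusted p under 0.05, 3 of the 11 were higher and 1 lower. At 11 d 0 were higher in the mutant (0 at an unadjusted p under 0.05), against 23.9% of all genes, and 2 were lower, against 22.8%. The lower genes were RIXI and Chib3H-h, and Cht9 became the third without the array in doubt. The genotype difference changed between the ages, toward lower values in the mutant, in 4 of 11, against 19.6% of all genes; 0 changed the other way (0 at an unadjusted p under 0.05), against 18.6%. Besides RIXI and Chib3H-h these were Cht11 (-2.19, adjusted p = 0.0199) and OsChia1a (-1.16, adjusted p = 0.0264). For OsChia1a the call was lost on leaving out the array in doubt (-0.98, adjusted p = 0.0611). With the number ending the sample title as a block, 1 of the 4 calls remained, that of Chib3H-h. That block acts at 7 d alone and sets aside the arrays there whose number has no partner in the other genotype.

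Cht11 had 8.41, 7.79 and 7.54 in the mutant at 11 d, against 7.90, 7.58 and 9.71 in wild type at 11 d. Its 7 d values were 8.90, 9.06 and 8.65 in the mutant, against 7.11, 7.09 and 7.31 in wild type. The genotypes were apart at 7 d, with the mutant higher by 1.70 (adjusted p = 0.0808), and overlapped at 11 d. Its rise with age in wild type, 1.23 (adjusted p = 0.0409), was 0.57 (adjusted p = 0.0745) without wild-type 11 d replicate 3, the array at 9.71, and it passed in 6 of 18 alternatives. The remaining gene that rose in wild type was Cht3, by 1.40 (SE 0.33, adjusted p = 0.00571). Its dimmer probe set rose by 0.75 (SE 0.23, adjusted p = 0.0259). The probes of both sets can match other transcripts. Cht6, Cht10, Rcb4 and LOC4351188 passed in no comparison. Nor did the brightest of 3 probe sets for Cht8, though a dimmer one rose by 0.62 in wild type (adjusted p = 0.0112) and its genotype difference changed between the ages by -0.79 (adjusted p = 0.0309).

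**Figure D5:**
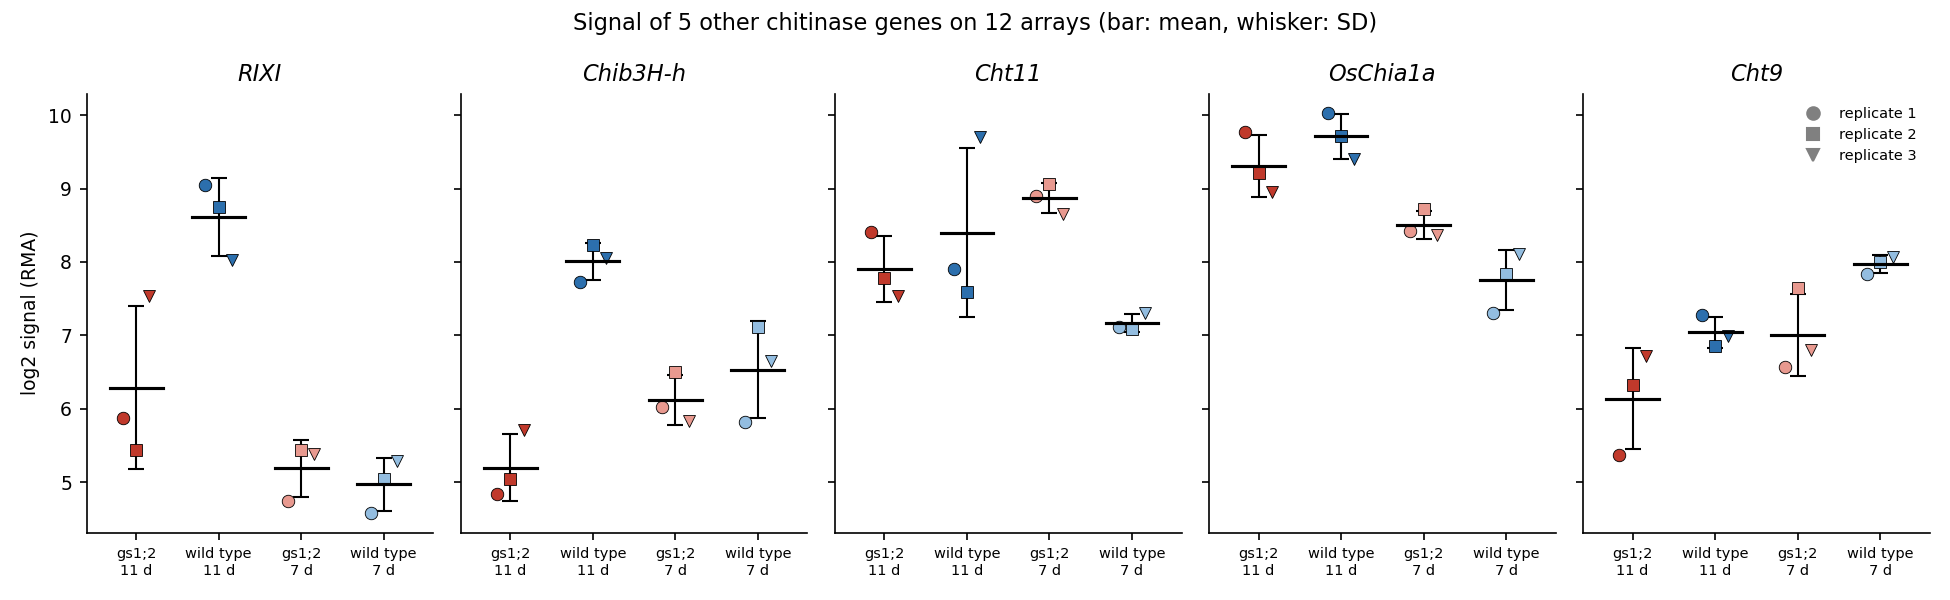
Log2 signal of RIXI, Chib3H-h, Cht11, OsChia1a and Cht9 in each of the 12 arrays, by group, with group means and SDs (n = 3 arrays a group). RIXI and Chib3H-h are high in wild type at 11 d, and OsChia1a is higher at 11 d in both genotypes.

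Genes that sense chitin, and regulators of the defence responses in which chitinases take part, were compared over age and genotype as well. Of 4 genes of chitin perception, 1 rose and 0 fell in the mutant with age, against 6.51% and 8.98% of all genes, and 3 rose and 1 fell in wild type, against 25.5% and 28.4%. CEBIP, the receptor that binds chitin fragments at the cell surface, was the gene that rose in both genotypes. It had 10.71, 10.30 and 10.48 in the mutant at 11 d, against 9.63, 9.37 and 9.70 in the mutant at 7 d. In wild type it had 10.06, 10.37 and 10.34 at 11 d, against 9.77, 9.74 and 9.72 at 7 d. The rise was 0.93 (SE 0.12, adjusted p = 0.000526) in the mutant and 0.51 (SE 0.12, adjusted p = 0.0059) in wild type. CERK1, the receptor kinase that passes the chitin signal on, differed by -0.13 (adjusted p = 0.313) with age in the mutant and rose by 0.39 (adjusted p = 0.000559) in wild type. It was lower in the mutant at 11 d, with a difference of -0.49 (adjusted p = 0.000133). Its genotype difference changed with age by -0.51 (adjusted p = 0.00179). RLK10, which the gene table also lists under the name CERK1, was also lower in the mutant at 11 d, with a difference of -0.50 (adjusted p = 0.00132). LYP4, a receptor for chitin and peptidoglycan, was higher in the mutant at 11 d by 0.36 (adjusted p = 0.0164), a call lost on leaving out the array in doubt (0.34, adjusted p = 0.0513).

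The 3 regulators of defence matched by name were NH1, NH2 and NH3 of the NPR1 family. All 3 rose with age in wild type, against 25.5% of all genes. In the mutant 0 rose and 0 fell, against 6.51% and 8.98% of all genes (1 of the 3 higher at an unadjusted p under 0.05). NPR1 in Arabidopsis relays salicylic acid signals to pathogenesis-related genes, and NH1 is its rice counterpart. NH1 had 7.14, 7.20 and 7.22 in the mutant at 11 d, against 8.37, 8.90 and 8.63 in wild type at 11 d. At 7 d it had 7.31, 7.41 and 7.38 in the mutant, against 7.17, 7.27 and 7.35 in wild type. The wild-type arrays at 11 d lay above all the others, and the genotype difference at that age was -1.44 (SE 0.11, adjusted p = 2.54e-06). Its rise in wild type was 1.37 (adjusted p = 3.22e-06), and those of NH2 and NH3 were 0.83 (adjusted p = 2.85e-06) and 0.88 (adjusted p = 0.000466). All 3 were lower in the mutant at 11 d, against 22.8% of all genes. The genotype differences of all 3 changed toward lower values between the ages, against 19.6% of all genes. The changes were -1.54 (adjusted p = 5.44e-05), -0.69 (adjusted p = 0.000327) and -0.73 (adjusted p = 0.0234). NH3 has 4 probe sets, and 2 of them did not pass between genotypes at 11 d (-0.14 and 0.05).

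As a description of likeness, the log2 signals of each of the 3 chitinases were correlated over the 12 arrays with those of 510 probe sets of named genes whose group means ranged over at least 1, the 3 chitinases themselves left out. Nearest to Cht4 among these were HAP3F, a subunit of the CCAAT-binding factor NF-Y (0.975), OsSK3 (0.957), the zinc finger gene OsC3H54 (0.947), the phototropin gene Osnph1a (0.945) and LA, which acts in gravitropism (0.927). Nearest to chia4a among these were OsC3H54 (0.971), HAP3F (0.969), the MADS-box gene MADS55 (0.941), OsSK3 (0.940) and OrysaZxb (0.933). HAP3F, OsSK3 and OsC3H54 thus stood among the nearest 5 of both chitinases.

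The genes nearest in form moved over a smaller range, which the choice of Cht4 and chia4a largely fixes. OsC3H54, for example, averaged 6.48 in the mutant and 6.79 in wild type at 11 d, against 4.83 in the mutant and 4.74 in wild type at 7 d. HAP3F averaged 8.18 in the mutant and 8.55 in wild type at 11 d, against 7.08 in the mutant and 7.03 in wild type at 7 d. Like both chitinases, these 2 were higher at 11 d in each genotype.

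Nearest to Chia1d was GLN1-2 itself, the gene mutated in gs1;2, with a correlation of 0.836 over 12 arrays and 0.906 over 11 arrays without the array in doubt. Chib3H-h (0.767), OsTLP3 (0.752), SMR1 (0.746) and the light-induced gene LIR1 (0.714) followed. Chib3H-h, OsTLP3, SMR1 and LIR1 had smaller genotype differences at 7 d than Chia1d, of -0.41, -0.41, -0.31 and -0.29. They also differed with age in wild type, by 1.48, 0.64, 1.09 and 1.51, where Chia1d differed by 0.12. LIR1, for one, had a genotype difference of -2.53 at 11 d and -0.29 at 7 d, where Chia1d had -1.35 and -1.33. A correlation over arrays of 2 genotypes is high for any 2 genes that differ mainly with genotype and in the same direction. It says nothing of shared control.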

How the data were processed

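Total RNA of 12 samples was hybridised to 1-colour arrays. The authors deposited log2 values. The submitters' processing notes name RMA (robust multi-array average) and R 3.1.0, and no further setting is stated in the sources used here. The table held 57381 probe sets, and 187 controls were left out. Array medians were alike, so nothing more was normalized. Signal over background is unknown, and precision is limited by how few arrays there are. Of the probe sets, 22436 had 1 gene in the platform annotation, 95 several and 34663 none listed here. Symbols were brought up to date with the ASM3414082v1 gene table, where all 17905 genes were found. The files name no build, so no coordinates are given.

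All arrays were fitted with limma 3.58.1 (R 4.3.3), a mean per group and default moderation, with 8 residual degrees of freedom. Two-sided p-values were adjusted (Benjamini-Hochberg) within each comparison, over 57194 probe sets, and a gene passed at an adjusted p under 0.05. The procedure was tested on simulated data. A gene in a list was read from its probe set with the highest mean. Named were the 3 chitinases, up to 4 genes of each list with the smallest p among those passing in each comparison, and the 5 named genes most correlated with each chitinase, the 3 themselves left out; the other genes named were chosen after their values were seen. The members, lists and tests were chosen with earlier results of these data known. Lists of glucanases and further pathogenesis-related proteins matched 0 genes and 1 gene, because names clashed or were not found. That 1 gene, PBZ1, appears among the other observations. The numbers ending the titles are shared between the 7 d groups for 8 and 9 alone. Arrays sharing such a number did not deviate together (correlations 0.047 and 0.051), so no pairing was used. Alternatives were another moderation, the compared groups alone, a common median, quantile normalization, a filter on dim probe sets, array weights, a replicate block, every probe set by itself and leaving out each array. The replicate block is on the number ending the title, not on the replicate numbers used above, and acts at 7 d alone. It compares the genotypes there on the arrays numbered 8 and 9 only, so fewer arrays and degrees of freedom remain.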

Additional observations from a re-analysis of the deposited data

Results flagged for a closer look

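In 4 of the other chitinase genes limma's test of the change of the genotype difference with age passed with all arrays and no block. The genotype difference at 11 d minus that at 7 d was -2.54 for RIXI (SE 0.63, adjusted p = 0.0125), -2.40 for Chib3H-h (SE 0.43, adjusted p = 0.00182), -2.19 for Cht11 (SE 0.59, adjusted p = 0.0199) and -1.16 for OsChia1a (SE 0.33, adjusted p = 0.0264). The part of the growth condition and of the seed marker signal of the wild-type arrays at 11 d in these changes was not tested. With the replicate block, that of Chib3H-h alone of these 4 still passed, and that of OsChia1a was also lost without the array labelled mutant 11 d replicate 3 (-0.98, adjusted p = 0.0611).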

How the results depend on the processing

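The differences of Cht4, chia4a and Chia1d were computed in 268 combinations with an alternative setting, of which 109 left the value as it was, since the setting does not touch it, and 159 changed it, each by less than the replicate SD. That SD is large for Cht4, whose genotype difference ranged over -0.94 to -0.44 at 11 d and -1.37 to 0.09 at 7 d. For chia4a it ranged over -1.1 to -0.52 at 11 d and -1.12 to -0.53 at 7 d. The age difference ranged over 3.72 to 5.19 for Cht4 and 3.83 to 4.43 for chia4a in the mutant, and 4.10 to 4.70 and 3.96 to 4.28 in wild type. The genotype difference of Chia1d ranged over -1.46 to -1.29 at 11 d and -1.5 to -1.0 at 7 d. The filter on dim probe sets left Chia1d out, and no probe set with several genes held a member, so these gave no value.

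Counts among the 11 other chitinase genes were small and moved. Higher with age in wild type was 5, and 4 to 6 without single arrays, with Cht11 lost in 12 of 18 alternatives. Lower with age in wild type was 1, but 0 with trend and robust moderation and 0 to 1 without single arrays. Higher with age in the mutant was 0, but 1 without dim probe sets, 1 with array weights and 0 to 1 without single arrays, and the count higher in both genotypes moved likewise (0; 1, 1, and 0 to 1). Lower with age in the mutant was 0, but 1 with the compared groups alone and 0 to 2 without single arrays; lower in both genotypes was 0, and 0 to 1 without single arrays. Higher in the mutant at 7 d was 0, but 1 with the compared groups alone and 0 to 1 without single arrays. The change between ages toward lower values was 4, but 2 with trend and robust moderation and 1 with the replicate block, under which RIXI (-2.25, adjusted p = 0.0848), Cht11 (-2.27, adjusted p = 0.0813) and OsChia1a (-1.0, adjusted p = 0.0784) no longer passed and Chib3H-h did. Chib3H-h kept its calls in 18 of 18 alternatives, and OsChia1a kept its change between ages in 9 of 18. The causes were not tested. Over all genes, the share passing between genotypes at 7 d was 1.3%, and 0.2 to 4.2% without single arrays. With 3 arrays a group, and signal over background unknown, small differences of dim genes are not resolved.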

Other observations

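The 11 other chitinase genes had a negative genotype difference in 11 of 11 cases at 11 d and in 3 of 11 at 7 d, against 47.3% and 47.8% of all genes. Without the array labelled mutant 11 d replicate 3 it was negative in 8 of 11 at 11 d. The sign at 11 d thus rested on that array for Cht3, Rcb4 and Cht8, at 0.15, 0.02 and 0.59 without it.

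PBZ1, a pathogenesis-related protein of the PR10 class, varied more within groups than between them at 11 d with all arrays. It had 8.35, 9.55 and 5.97 in the mutant at 11 d, against 7.68, 4.76 and 8.33 in wild type at 11 d. The value of 5.97 came from mutant replicate 3, the array in doubt. The genotype difference at 11 d was 1.03 (limma adjusted p = 0.473) with that array and 2.03 (limma adjusted p = 0.0974) without it. At 7 d PBZ1 had 7.79, 8.55 and 8.54 in the mutant, against 5.41, 5.72 and 6.24 in wild type. The genotypes did not overlap at 7 d, and their means differed by 2.51 (SE 0.90, limma adjusted p = 0.197), which did not pass.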
